A study of Rattus norvegicus with 10 samples.

Results

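The natriuretic peptide system was described through 6 genes, picked by name at a time when earlier results of these data were known: the peptide precursor genes Nppa and Nppb, the protease gene Corin, and the receptor genes Npr1, Npr2 and Npr3. All 6 were found among the 39784 gene names of the 4 RNA-seq tables, and all 6 were among the 13420 names tested. The study compared neonatal rat cardiomyocytes, contractile cells of the newborn rat heart kept in serum-containing culture, of wild-type genotype throughout, that overexpressed YAP5SA (construct Ad-Xon-YAP5SA, 2 libraries) or YAP5SA-S94A (construct Ad-Xon-YAP5SA-S94A, 2 libraries). YAP is a transcriptional coactivator that reaches DNA through TEAD factors. In YAP5SA, serines at which YAP is normally inhibited are replaced by alanine, which keeps it active. YAP5SA-S94A has an additional replacement that disrupts TEAD binding. Both groups therefore carried an activated YAP transgene, and the labels give neither the species of the transgene nor the number of hearts pooled. The labels call the libraries biological replicates without naming separate isolations, so p values measure the spread between these libraries, which may be technical. The CUT&RUN part of the series (6 samples) was not analysed here. No RNA-seq library of GFP or uninfected cells was used, so no difference below shows which form departed from untreated cells.

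Natriuretic peptides are hormones that heart muscle secretes. Nppa encodes the precursor of atrial natriuretic peptide and Nppb that of B-type natriuretic peptide, and corin, a transmembrane serine protease, cleaves the atrial precursor into the active hormone. The receptor guanylyl cyclase encoded by Npr1 answers both peptides by making cyclic GMP, Npr2 encodes the related cyclase that prefers C-type natriuretic peptide, and Npr3 encodes the clearance receptor, which lacks a cyclase domain and removes peptides from the extracellular space. In the ventricle Nppa and Nppb are abundant before birth, decline afterwards and return under load, which made them standard markers of cardiac stress.

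The promoters of the peptide genes and of Npr3 are shown because these 3 genes include both peptide genes and the receptor gene with the largest difference below, and because YAP acts through TEAD factors, whose M-CAT motif lies in known regulatory regions of muscle genes. The 250 bases before the transcript start were taken from RefSeq (build GRCr8, which is not the build of the expression tables). Of the 6 genes 5 had an entry. Capitals mark the M-CAT core CATTCC, its variant CATTCT and the GATA factor core GATAA, each searched on both strands, with no overlap among the matches marked.
Nppa, chr5:163711934-163712183, plus strand: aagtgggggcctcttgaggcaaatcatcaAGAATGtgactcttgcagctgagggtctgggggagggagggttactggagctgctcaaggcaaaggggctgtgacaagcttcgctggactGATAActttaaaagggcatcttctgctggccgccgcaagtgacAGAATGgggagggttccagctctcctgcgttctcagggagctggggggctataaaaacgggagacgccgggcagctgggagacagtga
Nppb, chr5:163699758-163700007, plus strand: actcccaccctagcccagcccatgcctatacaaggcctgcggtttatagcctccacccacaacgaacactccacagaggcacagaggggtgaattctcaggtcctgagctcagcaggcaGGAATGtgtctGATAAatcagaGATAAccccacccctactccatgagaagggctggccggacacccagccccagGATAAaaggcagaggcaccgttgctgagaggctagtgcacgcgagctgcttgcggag
Npr3, chr2:62658766-62659015, minus strand: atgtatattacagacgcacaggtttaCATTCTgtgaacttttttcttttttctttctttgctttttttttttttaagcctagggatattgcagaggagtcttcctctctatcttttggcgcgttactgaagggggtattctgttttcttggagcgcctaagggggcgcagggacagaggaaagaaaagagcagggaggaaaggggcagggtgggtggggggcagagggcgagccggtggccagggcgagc

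The Nppb window held CATTCC on the opposite strand, 131 to 126 bases before the start, followed by GATAA at 120 to 116, 109 to 105 and 57 to 53 bases before it. In the Nppa window CATTCT stood on the opposite strand at 221 to 216 and at 88 to 83 bases before the start, with GATAA at 131 to 127. Npr3 had CATTCT alone, 224 to 219 bases before its start, and the windows of Npr1 and Corin held none of the 3 letter strings. Among 33469 rat promoter windows of the same length, 12.1% held CATTCC, 14.8% CATTCT and 23.5% GATAA, so each string alone is common. CATTCC or CATTCT stood in 24.75% of the windows, and both CATTCC and GATAA in 3.06%. The share with both CATTCT and GATAA, as in Nppa, was not counted. A match describes letters only and shows no binding.

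Of the 6 genes, 4 were higher in YAP5SA (Nppa, Nppb, Npr1 and Npr3) and 0 were lower at a limma adjusted p under 0.05, while Npr2 and Corin were not called. Across all tested genes 32.9% were called, 17.4% higher and 15.5% lower. Each of the 4 rose by at least 1 on the log2 scale, as 7.49% of tested genes did, and Nppb by at least 2, as 1.87% did. At an unadjusted limma p under 0.05, 4 were higher and 1 was lower. The libraries of the 2 forms did not overlap for 5 of the 6 genes, as for 68.2% of all tested genes. Levels are in TPM, transcript abundance that allows for gene length and has an equal total in each library. Each log2 difference is the mean log2(TPM + 1) of YAP5SA less that of YAP5SA-S94A, a scale on which the change of low genes is understated. With 2 libraries a form the smallest exact two-sided permutation p is 0.333, so the calls depend on limma's spread, which borrows from all genes.

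**Figure D1:**
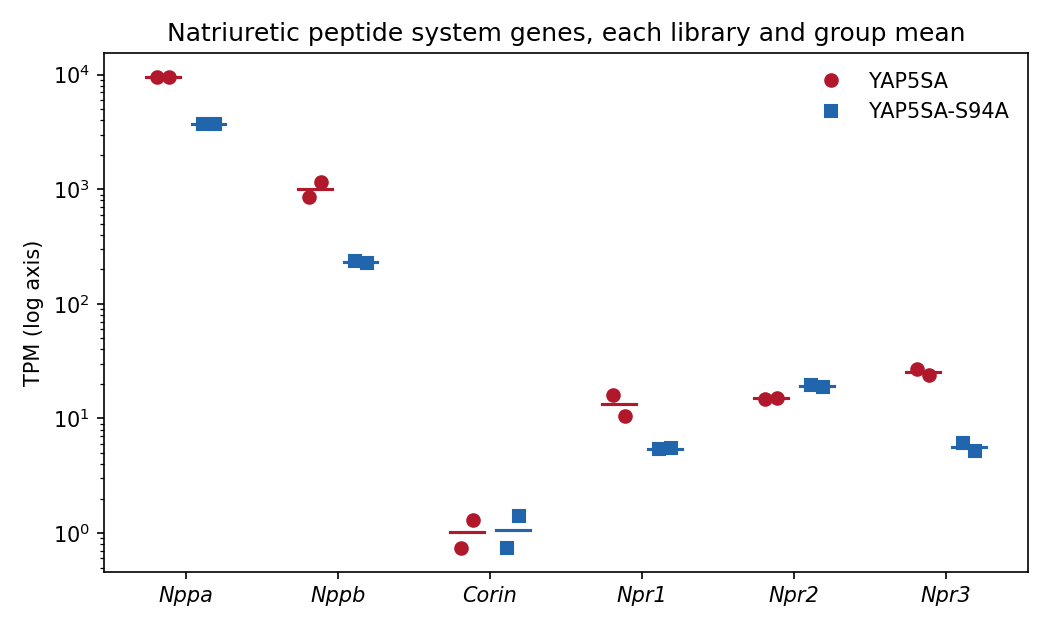
Level of each gene in every library (TPM, log axis). Circles are the 2 YAP5SA libraries, squares the 2 YAP5SA-S94A libraries, and short lines group means; Nppa lies at 9549.6 and 3729 TPM on average, Corin near 1 TPM in both groups.

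Nppa was the most abundant of the 6 genes and lay among the most abundant transcripts of the whole cell. It had 9625 and 9474 TPM in the YAP5SA libraries, against 3743 and 3714 TPM in the YAP5SA-S94A libraries. Both YAP5SA values were well above both others, and the libraries of each form differed little from each other. By TPM the gene ranked 3 and 4 of all names in YAP5SA, against 19 and 21 in YAP5SA-S94A. The group means were 9549.6 ± 107 and 3729 ± 20.7 TPM (SD, n = 2 each), a ratio of 2.56 and a log2 difference of 1.36 (SE 0.09, limma adjusted p = 6.83e-05). The gene lies on chromosome 5, 158429042 to 158430351 on the plus strand (rn7).

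Nppb had the larger relative difference of the peptide genes at a level about an order of magnitude lower. It stood at 865 and 1150 TPM in YAP5SA, against 236 and 228 TPM in YAP5SA-S94A. The YAP5SA libraries were apart from each other, with replicate 2 higher, whereas the YAP5SA-S94A libraries nearly coincided. The means were 1007 ± 201 and 232 ± 5.98 TPM (SD, n = 2 each), a ratio of 4.34 and a log2 difference of 2.10 (SE 0.14, limma adjusted p = 6.79e-05). Ordered by log2 difference from the highest, Nppb was number 228 and Nppa number 619 of the 13420 tested genes. The entry spans 158416813 to 158418175 on chromosome 5, plus strand.

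The make-up of the peptide transcripts also differed between the forms. Nppb stood at 0.0899 and 0.121 of the Nppa level in YAP5SA, against 0.0631 and 0.0613 in YAP5SA-S94A, with no overlap. The log2 difference of this ratio was 0.75, a factor of 1.68 (exact two-sided permutation p = 0.333, the smallest that 2 against 2 allows). Together both peptide genes took 1.05% and 1.06% of all TPM in YAP5SA, against 0.398% and 0.394% in YAP5SA-S94A.

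Corin transcripts were scarce in all 4 libraries. The gene had 0.736 and 1.30 TPM in YAP5SA, against 0.740 and 1.41 TPM in YAP5SA-S94A, and the groups overlapped fully. With means of 1.02 ± 0.40 and 1.07 ± 0.47 TPM (SD, n = 2 each), it passed the filter of a mean TPM of at least 1 only narrowly. The log2 difference was -0.04, with a 95% interval of -0.76 to 0.69 (limma adjusted p = 0.944), an interval wide enough to hold changes of either sign. Without YAP5SA replicate 1 the difference was 0.17. The deposited Coverage column, the authors' per-base read depth, gave Corin only 0.151 and 0.112 in YAP5SA and 0.107 and 0.166 in YAP5SA-S94A. Per aligned gigabase this coverage was 5.70 to 10.1% of what the FPKM of the gene would give, where the other 5 genes reached between 71.1% and 100.1%, a gap whose cause was not tested. The gene spans 35680601 to 35910703 on chromosome 14.

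**Figure D2:**
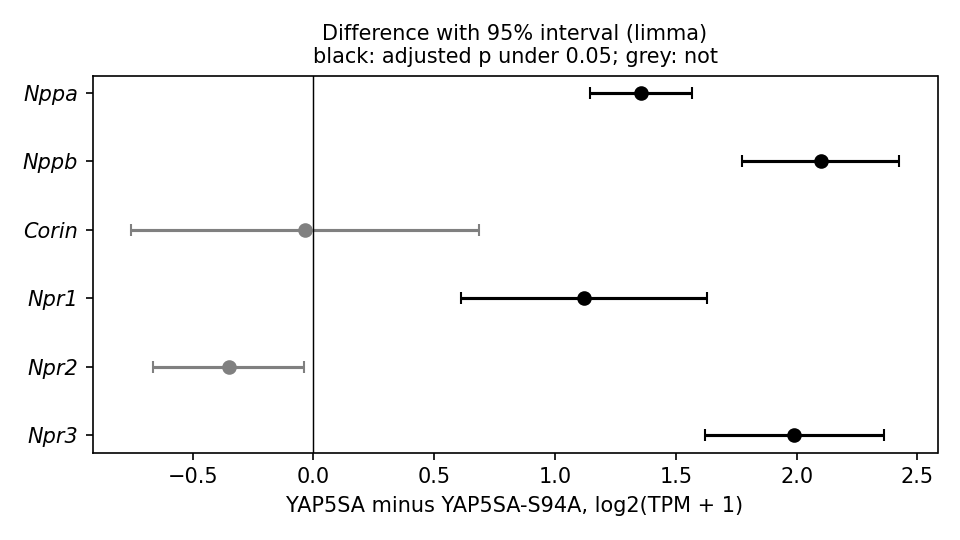
Log2 difference of each gene, YAP5SA minus YAP5SA-S94A, with its 95% interval from limma. Black genes were called, grey genes were not; the intervals of Nppb and Npr3 lie highest and that of Corin is the widest.

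Among the receptors the clearance receptor gene Npr3 differed most. It had 27.0 and 23.9 TPM in YAP5SA, against 6.09 and 5.23 TPM in YAP5SA-S94A. The lowest YAP5SA value was far above the highest YAP5SA-S94A value. Means were 25.5 ± 2.18 and 5.66 ± 0.60 TPM (SD, n = 2 each), a ratio of 4.50 and a log2 difference of 1.99 (SE 0.16, limma adjusted p = 1.52e-04). The entry lies on chromosome 2, 60865483 to 60933432 on the minus strand.

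Npr1, which encodes the cyclase that answers atrial and B-type peptide, rose less and was less even among the YAP5SA libraries. Its values were 15.9 and 10.5 TPM in YAP5SA, against 5.37 and 5.51 TPM in YAP5SA-S94A. The groups did not overlap, but the YAP5SA libraries lay farther apart than for Npr3. The means were 13.2 ± 3.82 and 5.44 ± 0.10 TPM (SD, n = 2 each), a ratio of 2.43 and a log2 difference of 1.12 (SE 0.22, limma adjusted p = 0.00739). The call was lost with no filter on low values (adjusted p = 0.0503), and leaving out YAP5SA replicate 1 gave a difference of 0.84 and leaving out replicate 2 gave 1.40, called in both. The gene lies on chromosome 2, 175934181 to 175950118.

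Npr2, the C-type peptide receptor gene, stood lower in YAP5SA without passing the test. It had 14.7 and 15.2 TPM in YAP5SA, against 19.8 and 19.0 TPM in YAP5SA-S94A. The groups did not overlap, though they were close. The log2 difference was -0.35, with a 95% interval of -0.66 to -0.04 before adjustment (limma adjusted p = 0.0832). It was called lower when entries of the mitochondrial chromosome were left out and TPM rescaled (difference -0.42, adjusted p = 0.0456), where the median difference of all tested genes was itself -0.066. Mitochondrial entries took 7.53% and 10.2% of TPM in YAP5SA, against 12.6% and 14.0% in YAP5SA-S94A. The gene spans 57883171 to 57901590 on chromosome 5, far from the peptide genes on the same chromosome.

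By TPM the receptors thus stood in a different order in the forms. In YAP5SA the highest was Npr3, above Npr2 and Npr1, whose values overlapped. In YAP5SA-S94A the highest was Npr2, above Npr3 and Npr1, whose values overlapped. Npr3 made up 46.8% and 48.1% of the summed receptor TPM in YAP5SA, against 19.5% and 17.6% in YAP5SA-S94A. For Npr2 the shares were 25.5% and 30.7% in YAP5SA and 63.3% and 63.9% in YAP5SA-S94A. The Npr3 to Npr2 ratio was 1.83 and 1.57 in YAP5SA, against 0.308 and 0.275 in YAP5SA-S94A. The Npr3 to Npr1 ratio was 1.69 and 2.27 in YAP5SA, against 1.13 and 0.949 in YAP5SA-S94A. With the Coverage column in place of TPM it was 1.41 and 2.12 in YAP5SA, against 0.905 and 0.840 in YAP5SA-S94A. The order of Npr3 and Npr1 in YAP5SA-S94A thus depends on the unit. Neither ratio overlapped between the forms (exact two-sided permutation p = 0.333 for each, the smallest possible). Summed over both cyclase receptors, Npr1 and Npr2, the level was 30.7 and 25.8 TPM in YAP5SA, against 25.1 and 24.5 TPM in YAP5SA-S94A, a separation smaller than the gap between the YAP5SA libraries.

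**Figure D3:**
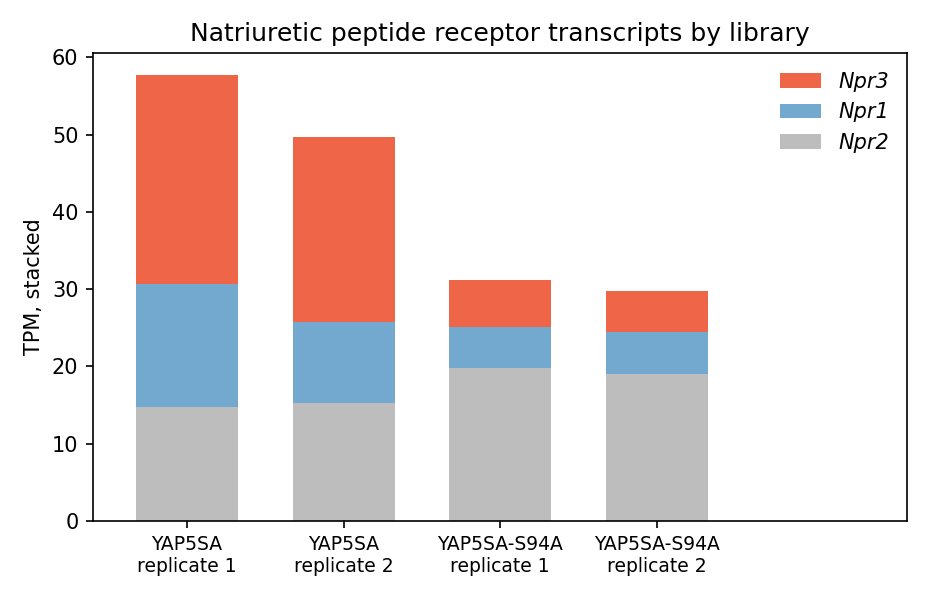
Stacked TPM of the receptor genes in each library, with Npr2 at the bottom, Npr1 in the middle and Npr3 on top. The sums are 57.7 and 49.7 TPM in YAP5SA and 31.2 and 29.7 TPM in YAP5SA-S94A, with the Npr3 portion larger in both YAP5SA libraries.

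The 6 genes kept the same order of magnitude relations in both forms: Nppa, then Nppb, then the receptors, then Corin. Every receptor lay far below the peptide genes. By log2 difference Npr3 was number 255 from the highest and Npr1 number 856, while Corin was number 7121 and Npr2 number 10274.

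**Figure D4:**
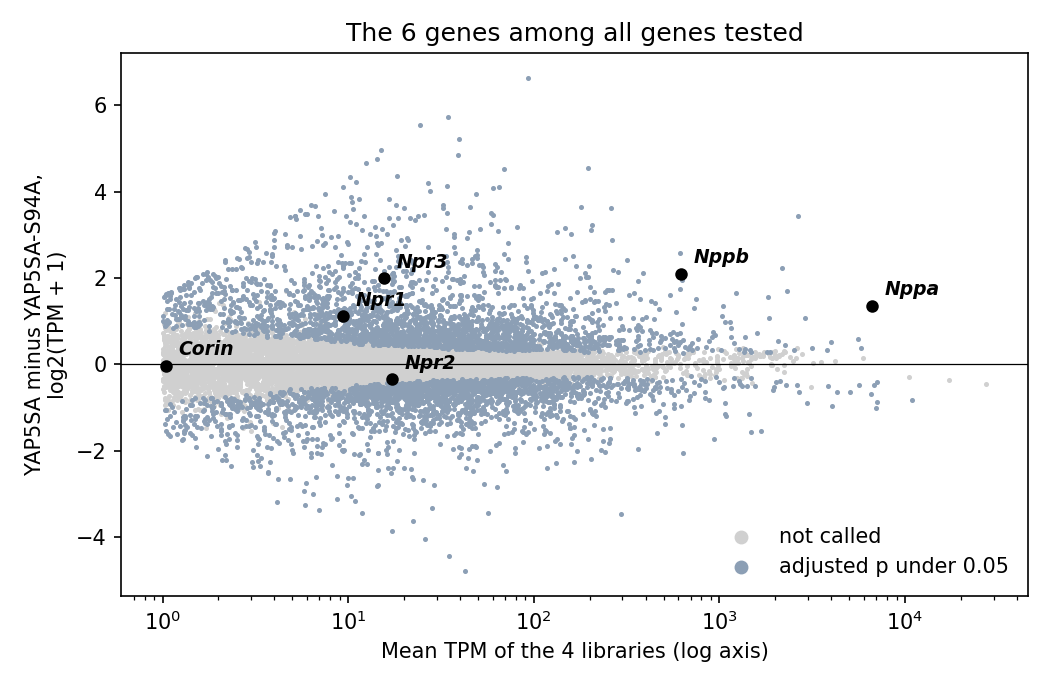
Every tested gene by mean TPM of the 4 libraries (log axis) and log2 difference, YAP5SA minus YAP5SA-S94A; blue-grey points were called, light grey points were not. Nppa (1.36) and Nppb (2.10) lie far to the right, Npr3 (1.99) and Npr1 (1.12) at moderate levels, and Corin and Npr2 just below 0.

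Enzymes and ligands around the receptors differed in part. Of 10 listed genes for other ligands, processing and clearance, 5 passed the filter, 3 rose, 1 fell and 1 was not called, with a median difference of 1.496 over those 5 (all tested genes 0.000148). With no filter the median was 0.14. Over all tested genes 17.4% were called higher and 15.5% lower. Pcsk6, a proprotein convertase known to activate corin, had 34.8 and 33.2 TPM in YAP5SA, against 10.3 and 9.90 TPM in YAP5SA-S94A, so all YAP5SA values were higher (log2 difference 1.65, limma adjusted p = 1.50e-04). Its relative Pcsk5 stood at 20.7 and 16.7 TPM in YAP5SA, against 4.10 and 3.73 TPM in YAP5SA-S94A (difference 2.00). Mme, which encodes neprilysin, a peptidase that degrades natriuretic peptides, had 16.3 and 19.6 TPM in YAP5SA, against 5.70 and 5.70 TPM in YAP5SA-S94A (difference 1.496, limma adjusted p = 6.48e-04). The opposite direction held for Furin, a convertase that can cleave the B-type precursor, at 115 and 82.3 TPM in YAP5SA, against 167 and 163 TPM in YAP5SA-S94A (difference -0.75, limma adjusted p = 0.00988), a call lost with no filter (adjusted p = 0.0598). Ide, the insulin-degrading enzyme gene, was not called at 40.5 and 46.8 TPM in YAP5SA, against 52.1 and 55.4 TPM in YAP5SA-S94A (limma adjusted p = 0.0993), and was called lower without YAP5SA replicate 2 (adjusted p = 0.0284). Nppc, the C-type peptide gene and so the ligand gene of Npr2, stayed below the filter at 0.471 and 0.693 TPM in YAP5SA and 0.660 and 0.277 TPM in YAP5SA-S94A. Ostn, whose product binds the clearance receptor, was listed at 0 in every library.

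Genes that make, break down or answer cyclic GMP moved both ways. Of 23 listed genes 17 passed the filter, 2 rose, 4 fell and 11 were not called, with a median of -0.03. Over all tested genes 17.4% rose and 15.5% fell, so these counts do not set the list apart. With no filter 1 rose, as without YAP5SA replicate 1. Trpc6, a cation channel that cyclic GMP-dependent kinase inhibits, had 24.8 and 26.8 TPM in YAP5SA, against 2.23 and 2.57 TPM in YAP5SA-S94A, with no overlap (difference 2.98, limma adjusted p = 4.15e-05). Pln, the gene of phospholamban, a brake of the sarcoplasmic calcium pump and a kinase substrate, had 654 and 673 TPM in YAP5SA, against 1486 and 1481 TPM in YAP5SA-S94A (difference -1.16). Also lower were the G-protein regulator gene Rgs2 (-0.74), the kinase substrate gene Irag1 (-1.15) and the phosphodiesterase gene Pde3a (-0.78). A further phosphodiesterase gene, Pde10a, rose by 1.08 (limma adjusted p = 0.0174) but was not called with no filter (0.0652) or when YAP5SA replicate 1 was left out (0.0545). The soluble guanylyl cyclase gene Gucy1b1 was not called at 26.6 and 26.2 TPM in YAP5SA, against 25.8 and 26.0 TPM in YAP5SA-S94A. Its partner Gucy1a1 (difference -0.36, limma adjusted p = 0.0692) and the kinase substrate gene Vasp (-0.38, adjusted p = 0.108) were not called either, but both were called lower with the mitochondrial entries left out (adjusted p = 0.0347 and 0.0432), and Vasp also without YAP5SA replicate 1 (0.00478) and with the replicate block (0.0172). Prkg1, the cyclic GMP-dependent kinase gene, named after its values were seen, averaged 16.1 TPM in YAP5SA and 14.8 TPM in YAP5SA-S94A cells and was not called (limma adjusted p = 0.778).

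Transcription factors known to act on the peptide genes did not share a direction. All 36 listed factors passed the filter, of which 5 rose, 6 fell and 25 were not called, with a median of -0.0078. These counts are close to the shares over all tested genes, 17.4% higher and 15.5% lower. The number that rose was 9 without YAP5SA replicate 2 and 2 without YAP5SA-S94A replicate 2; the number that fell was 10 without YAP5SA replicate 1. With no filter 3 rose and 2 fell. Tead4, a DNA-binding partner of YAP, had 17.7 and 14.8 TPM in YAP5SA, against 2.24 and 1.70 TPM in YAP5SA-S94A (difference 2.54). Tead1 had 154 and 162 TPM in YAP5SA, against 79.2 and 84.5 TPM in YAP5SA-S94A (0.94). The T-box factor gene Tbx5, an activator of Nppa, had 7.92 and 5.55 TPM in YAP5SA, against 19.5 and 21.3 TPM in YAP5SA-S94A (difference -1.49, limma adjusted p = 0.00123). The thyroid hormone receptor gene Thra fell by 0.99. Mef2d, a muscle transcription factor gene, fell by 0.62 (limma adjusted p = 0.0166) but was not called with no filter (0.0699) or with no intensity trend (0.0523). The immediate early gene Egr1 rose by 0.83 (limma adjusted p = 0.00839), no longer called when YAP5SA-S94A replicate 2 was left out (0.0511). Gata4, whose product binds GATA motifs such as those marked above, had 170 and 128 TPM in YAP5SA, against 126 and 131 TPM in YAP5SA-S94A. These Gata4 groups overlapped and were not called (limma adjusted p = 0.320), but the gene was called higher without YAP5SA replicate 2 (0.0147). Tbx20 (difference 0.15) and Jund (0.36) were not called, Jund being called higher with YAP5SA replicate 2 left out (adjusted p = 0.0188), with YAP5SA-S94A replicate 1 left out (0.0407) and with the replicate block (0.0228).

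Nppb and Nppa lie in tandem, 10866 bases apart, and no tested neighbour was called higher. Of the 10 nearest named genes, 5 on each side, 9 passed the filter, 0 rose and 2 fell (limma, 0 and 2 at an unadjusted p under 0.05), with a median difference of -0.21. Of all tested genes 17.4% rose and 15.5% fell, so for 9 genes these counts are near that share. With no filter 0 fell. Clcn6, the chloride transporter gene next to Nppa, had 15.4 and 15.03 TPM in YAP5SA, against 14.6 and 15.8 TPM in YAP5SA-S94A, so its groups overlapped (limma adjusted p = 0.991). On the other side the lysyl hydroxylase gene Plod1 had 30.3 and 21.1 TPM in YAP5SA, against 40.1 and 41.1 TPM in YAP5SA-S94A (difference -0.66, limma adjusted p = 0.0261). The call of Plod1 was lost with no filter (adjusted p = 0.0948), with no intensity trend (0.0612) and with the Coverage column (0.0565), and its difference was -0.41 without YAP5SA replicate 2. Mfn2, a mitochondrial fusion gene, fell by 0.41 (limma adjusted p = 0.0415). It was not called with FPKM (0.0602), with the Coverage column (0.0676), with no filter (0.0953), with no intensity trend (0.0985), or without YAP5SA replicate 2 (difference -0.27, 0.0534), YAP5SA-S94A replicate 1 (0.145) or YAP5SA-S94A replicate 2 (0.215).

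**Figure D5:**
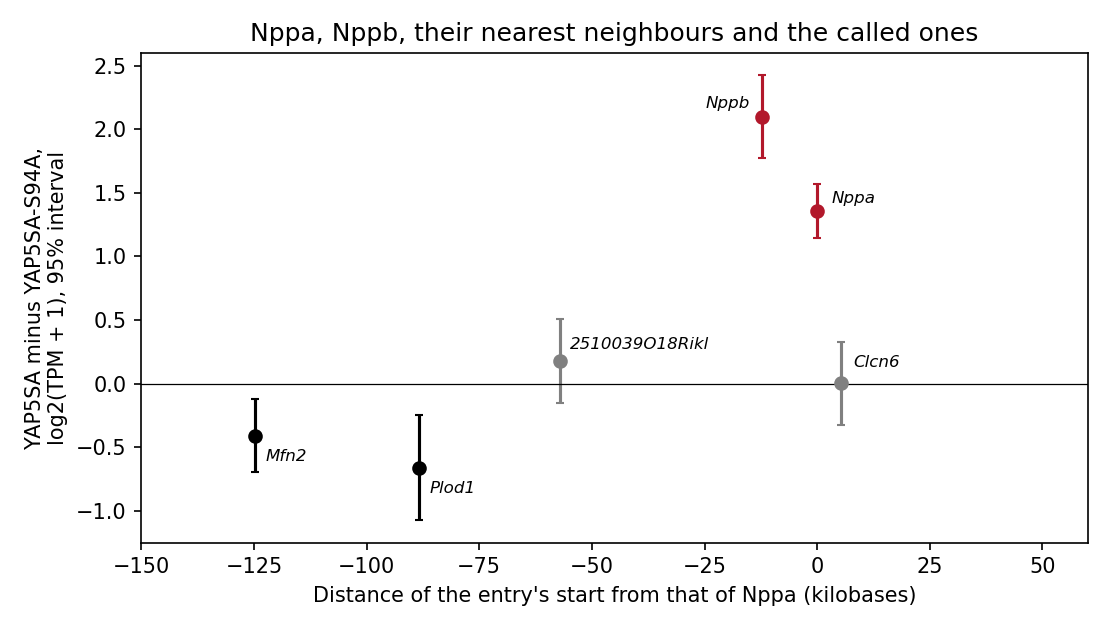
Log2 difference, YAP5SA minus YAP5SA-S94A, with its 95% interval, of Nppa and Nppb (red), the nearest neighbour on each side and the called neighbours, by distance of each start from that of Nppa in kilobases. Black neighbours were called and grey ones were not; both peptide genes lie above 1 and the point of every neighbour shown lies below 0.5.

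The cell type was checked against lists of marker genes. The shares of all tested genes to set beside the marker counts are 17.4% called higher and 15.5% called lower. In bulk samples, fewer cells of a type and less RNA per cell cannot be told apart. Cardiomyocyte markers, all 10 of which were above 0 in every library, summed to 18987 and 19786 TPM in YAP5SA, against 28858 and 29276 TPM in YAP5SA-S94A; 8 of 10 fell and 0 rose in limma, and 5 fell without YAP5SA-S94A replicate 2. Both peptide genes therefore differed in the opposite direction to the summed cardiomyocyte markers. Atrial markers, of interest because Nppa is an atrial gene, summed to 523 and 476 TPM in YAP5SA, against 533 and 513 TPM in YAP5SA-S94A, with 0 of 8 tested higher and 2 lower in limma (1 lower with no filter). The atrial light chain gene Myl7 was at 70.9 and 80.6 TPM in YAP5SA, against 167 and 159 TPM in YAP5SA-S94A. The more abundant atrial light chain gene Myl4 went the other way. It had 405 and 360 TPM in YAP5SA, against 319 and 310 TPM in YAP5SA-S94A. Myl4 was not called (difference 0.28, limma adjusted p = 0.0624). Ventricular markers summed to 14284 and 14354 TPM in YAP5SA and 18291 and 18178 TPM in YAP5SA-S94A, with 0 of 5 higher and 2 lower in limma. No ventricular call remained with no filter or at an adjusted p under 0.01, and 1 marker was lower with no intensity trend, with quantile normalization or without YAP5SA-S94A replicate 1. At an unadjusted p under 0.05, 1 cardiomyocyte, 1 atrial and 0 ventricular markers were higher.

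Npr1 and Npr3 are also expressed by endothelium and endocardium, whose 12 markers summed to 40.2 and 40.0 TPM in YAP5SA, against 48.2 and 48.3 TPM in YAP5SA-S94A. Of these markers 8 were tested, of which 1 (Tek) rose and 1 (Kdr) fell, and 2 rose with no filter. Cldn5 was listed at 0 in every library and Pecam1 stood at 1.45 and 1.71 TPM in YAP5SA and 1.48 and 2.07 TPM in YAP5SA-S94A. Fibroblast markers summed to 9843 and 7914 TPM in YAP5SA and 7735 and 7393 TPM in YAP5SA-S94A, with 2 of 12 higher and 2 lower, but only 1 was higher under 13 of 18 alternatives. Thy1, named after its values were seen, was called narrowly (limma adjusted p = 0.0494). Smooth muscle and pericyte markers, mostly Acta2 and Tagln, summed to 6788 and 6576 TPM in YAP5SA, against 1368 and 1352 TPM in YAP5SA-S94A. Of these 9 markers 3 were higher, namely Acta2 (difference 3.44), Tagln (1.34) and Cnn1 (1.04), and 1 was lower, Abcc9 (-2.77). The other 5, Myh11 (0.12), Rgs5 (0.38), Cspg4 (-0.18), Pdgfrb (-0.02) and Kcnj8 (-0.16), were not called, so the sum does not stand for the whole list. Epicardial and mesothelial markers summed to 118 and 103 TPM in YAP5SA, against 61.0 and 56.6 TPM in YAP5SA-S94A. In limma 4 of 8 tested were higher and 0 lower (1 lower at an unadjusted p under 0.05). Of the 4 higher, Msln, named after its values were seen, was called narrowly (limma adjusted p = 0.0417). Upk3b, also higher, had 22.4 and 18.2 TPM in YAP5SA, against 0.611 and 0.544 TPM in YAP5SA-S94A, so it passed the filter only through YAP5SA. Wt1 (difference -0.20), Upk1b (-0.37), Tbx18 (-0.34) and Krt8 (0.31) were not called. Macrophage markers summed to 551 and 531 TPM in YAP5SA, against 838 and 831 TPM in YAP5SA-S94A, with 1 of 6 tested higher and 3 lower. The part of these cell types in the differences of the 6 genes was not tested.

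To place the patterns, each of the 6 genes was set beside the named genes with the most similar profile, measured as the Euclidean distance of centred log2(TPM + 1) values over 4 libraries. Nearest to Nppa were Cyld (distance 0.032), Ager (0.038) and Tagln (0.039). Nearest to Nppb were Msmo1 (0.047), Mphosph8 (0.109) and Lmod3 (0.131), all with the higher value in YAP5SA replicate 2. For Npr3 they were F3 (0.066), Tuba1b (0.086) and Rasl11b (0.104), and for Npr1 Wtip (0.076), Tnfrsf11a (0.077) and Adissp (0.088), all with the higher value in YAP5SA replicate 1. For Npr2 they were Osbpl2 (0.0071), Hars2 (0.022) and Wdfy4 (0.024), and for Corin Rbak (0.052), Zfp955a (0.053) and Zfp786 (0.083). The 4 libraries form 2 groups, so these distances follow mainly the difference between the forms and the gaps between replicates.

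As facts of the series, the deposited tables corresponded to 4.02 to 5.10 gigabases of aligned sequence per library, and the correlation of log2 values across genes, which are not independent replicates, was r = 0.985 for the YAP5SA pair, 0.991 for the YAP5SA-S94A pair and 0.926 to 0.932 for pairs of different forms. The YAP target gene Ccn1 had 522 and 438 TPM in YAP5SA, against 39.9 and 36.1 TPM in YAP5SA-S94A. Yap1 itself, a row that may or may not capture the transgene, had 105 and 99.1 TPM in YAP5SA, against 117 and 121 TPM in YAP5SA-S94A, and was not called (limma adjusted p = 0.122). Among the 6 genes, Npr1 and Corin overlap entries on the opposite strand, which stood at 0 to 0.176 TPM.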

How the data were processed

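RNA was sequenced from neonatal rat cardiomyocytes in 4 libraries, from poly(A) RNA with strand-marking library preparation per the labels' protocols. Per the submitters' processing notes, fastp, HISAT2 2.2.1, StringTie 2.2.1 and the build rn7 were used, with no settings; the strand setting is not given in the sources used here. Each deposited table held 40903 entries. TPM and FPKM values were computed by the authors, and the Coverage signal, per the file headers, is per-base read depth. Depth was read from the most common ratio of Coverage to FPKM, and intervals cover the spread between libraries only.

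Entries sharing a gene name were summed (517 names). Names with a mean TPM of at least 1 entered a limma fit (3.58.1, R 4.3.3) of log2(TPM + 1) by form with an intensity trend, with Benjamini-Hochberg adjustment over all 13420 names and a threshold of 0.05. On simulated data with 200 changed genes among 13420, limma recovered 97% of changes of 1 and 100% of changes of 2 on the log2 scale, with 18 false calls among 215. In the deposited data 32.9% of tested genes were called, and recovery at such a share was not tested. The changed genes were drawn only from genes well above the filter, and recovery was not split by gene level. No recovery is therefore given for scarce genes such as Corin. The simulated spread was normal and took limma's own estimates. Chromosome numbers came from symbols shared with RefSeq's gene table (99.4% on 1 chromosome per sequence). Alternatives were other pseudocounts, filters, units, scalings and variance models, the replicate number as a block, a stricter threshold and each library left out.

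The members and lists were chosen with earlier results of these data known. Named genes are all 6 members; from each pathway list up to 6 called genes with the smallest p and the 3 most abundant not called; the 10 nearest neighbours by count; and the 3 genes of most similar profile. Nppc, Ostn, Prkg1, Clcn6, Acta2, Tagln, Tek, Kdr, Msln, Myl4 and Myl7 as markers or list members, and the Npr3 promoter, were chosen after their values were seen. The further smooth muscle and epicardial markers given with values were also named after these were seen. The values of 1 neighbouring gene are not reported here. Other tools were Python 3.11.15, pandas 2.3.3, numpy 2.4.6, scipy 1.17.1 and matplotlib 3.10.9.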

Additional observations from a re-analysis of the deposited data

How the results depend on the processing

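Of the 6 genes, Nppa, Nppb and Npr3 were called higher under all 18 alternatives, with log2 differences of 1.28 to 1.53, 1.89 to 2.31 and 1.68 to 2.15. Npr1 was called under 17 of 18 and missed the threshold with no filter (1.12, adjusted p = 0.0503). Npr2 was called lower only with the mitochondrial chromosome left out (-0.42), which made 1 of the 6 lower. Corin gave -0.27 to 0.17 when single libraries were left out; it had a value in 13 alternatives and fell below the filter in the others. The scaling with the Coverage column per aligned gigabase was chosen after seeing the data.

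Over all genes, an adjusted p under 0.01 left 1439 higher and 1046 lower, and leaving out a library gave 1299 to 2891 lower. The processing and clearance list had 0 lower with no filter and 1 to 2 without single libraries; its median was 1.29 with FPKM, 1.02 with coverage, 1.45 with the mitochondrial chromosome left out, 0.14 with no filter, 1.63 and 1.57 with pseudocounts of 0.1 and 0.5, 1.44 with quantile normalization and 1.37 to 1.62 without single libraries. In the cyclic GMP list 1 rose with coverage, a mean TPM of at least 5, no filter or the stricter threshold, and 3 with no intensity trend (1 to 3 without single libraries). Of the transcription factors 3 rose with coverage, no filter or the stricter threshold, and 2 to 9 without single libraries; 2 fell with no filter or the stricter threshold, 3 with no intensity trend and 4 to 10 without single libraries; their median was -0.077 without mitochondrial entries and -0.10 to 0.15 without single libraries. Of the neighbours 1 fell with FPKM, 0 with coverage, no filter, no intensity trend or the stricter threshold, and 1 to 3 without single libraries; their median was -0.28 without mitochondrial entries, -0.27 with quantile normalization and -0.22 to -0.12 without single libraries.

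Ventricular markers had 0 lower with no filter or the stricter threshold, 1 with no intensity trend or quantile normalization and 1 to 3 without single libraries. Atrial markers had 1 higher with median-of-ratios scaling or the replicate block and 0 to 1 without single libraries, and 1 lower with no filter or the stricter threshold. Cardiomyocyte markers had 1 higher with the block, 0 to 1 higher and 5 to 9 lower without single libraries. Fibroblast markers had 1 higher under most settings and 1 to 3 without single libraries. Endothelial markers had 2 higher with no filter, and epicardial markers 1 lower without mitochondrial entries and 0 to 1 without single libraries.

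Signs turned for Gucy1b1 (-0.0013 with FPKM, -0.034 with coverage, -0.043 without mitochondrial entries), Clcn6 (-0.023, -0.032 and -0.065 in the same settings, -0.050 with quantile normalization, -0.050 to 0.056 without single libraries), Jund (-0.034 to 0.76) and Gata4 (-0.0028 to 0.40), none of them called in the main test. The cause of these changes was not tested. Leaving out mitochondrial entries moved the median of all genes to -0.066, against 0.000148.

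Same-numbered libraries deviated together only weakly across genes (r = 0.101). With 2 libraries a form the replicates deviate by equal and opposite amounts, so both pairs give this same value. It cannot settle whether the numbers pair the samples, and the main fit did not pair them. The replicate block gave 2726 genes higher and 2593 lower, against 2337 and 2083 in the main fit, and 4 of the 6 genes higher. With 2 libraries a form, the difference of Npr2 did not pass the threshold.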
